A study of Mus musculus with 12 samples.

Results

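The genes of ciliary transport studied here are the 34 genes of intraflagellar transport (IFT), the BBSome, kinesin-2, cytoplasmic dynein-2 and their close partners Arl3 and Cep290 that the arrays measured, out of 19938 named genes in all. They were picked by symbol alone: every Ift or Bbs symbol followed by a number, together with Wdr19, Wdr35, Ttc21b, Ttc8, the kinesin and dynein subunits Kif3a, Kif3b, Kifap3, Kif17, Dync2h1 and Dync2li1, and the genes Arl3, Arl6, Arl13b and Cep290. Arl6 and Arl13b had no probe set with a single gene symbol and were not analysed here. Each of the 34 genes was read by 1 probe set, the group of probes on the array that is summarised to 1 value per gene.

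A primary cilium is built and maintained by IFT trains that run along its microtubules. The IFT-B complex and kinesin-2 carry cargo towards the tip, and the IFT-A complex and dynein-2 carry it back. The BBSome is a coat-like complex that rides on these trains and moves membrane proteins in and out of the cilium. Olfactory sensory neurons bear long cilia that hold the odorant receptors and the transduction machinery, and in mice loss of BBSome subunits or of Cep290 impairs the sense of smell.

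The arrays compared olfactory mucosa cells of S100a5-tauGFP mice, sorted by fluorescence-activated cell sorting (FACS) into GFP-positive and GFP-negative fractions. All groups carried the S100a5-tauGFP reporter, and S100a5 is known as a gene of olfactory sensory neurons whose expression depends on activity. The 18 mice, of both sexes and aged 7 to 12 weeks, stayed singly in clean air chambers for 40 hours at 3.1 L/min. From 26 hours onward odor mice received odorant for 10 seconds every 20 minutes (the series title names a citrus accord at 5%). Vehicle mice received filtered air. Cells of 3 mice were pooled per sample, giving 3 pools per treatment and 4 groups of 3 arrays, namely the GFP-positive and the GFP-negative cells of odor mice and the same fractions of vehicle mice. The labels number the odor pools 2, 3 and 4 and the vehicle pools 1, 2 and 4, and values below are listed in that order. Both fractions of a pool came from the same mice. The main test did not use this pairing and treated all arrays as separate. Its p-values measure the spread between the pools of a group.

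All values are deposited log2 signals, with a range of 2.42 to 14.1 and array medians of 7.04 to 7.20. Arrays of 1 group correlated at 0.984 to 0.994 (Pearson, across all probe sets), against 0.929 to 0.960 for arrays of different fractions. S100a5 itself was at 6.41, 6.34 and 6.32 in odor GFP-positive arrays and 6.16, 6.14 and 5.83 in odor GFP-negative arrays, against 6.48, 6.29 and 6.29 and 6.23, 6.08 and 6.18 in the same fractions of vehicle mice. The sort difference of S100a5 was 0.31 (SE 0.10) in odor mice, limma adjusted p = 0.0167 (0.0706 after cyclic loess), and 0.19 (SE 0.10) in vehicle mice, adjusted p = 0.123. All 12 of its values lay near or below the lower quartile of genes, which was 6.25 to 6.41 over the arrays. Omp, the marker of mature olfactory sensory neurons, was high in both fractions, at 13.45 to 13.51 in GFP-positive arrays and 13.04 to 13.29 in GFP-negative arrays.

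The first comparison asked how the ciliary transport genes differed between the fractions of the same mice. They were higher in GFP-positive cells across every complex: 33 of the 34 passed the test (adjusted p under 0.05, limma, adjusted over all 19938 genes) in odor mice and the same 33 passed in vehicle mice. Ttc21b was the exception in both, and none was lower. Of all genes, 33.5% passed as higher and 18.7% as lower in odor mice, and 29.9% as higher and 18.2% as lower in vehicle mice. The median difference of the 34 genes was 0.73 on the log2 scale in each treatment, a 1.66-fold higher signal, against an all-gene median of 0.13 in odor mice and 0.06 in vehicle mice. Among all passing genes, 64.2% were higher in odor mice and 62.2% in vehicle mice. That share was 79.3% and 76.7% after median centring and 42.0% and 43.8% after cyclic loess, settings under which 31 to 33 of the 34 genes in odor mice and 30 to 33 in vehicle mice still passed as higher and none as lower. Of all genes, 94.0% in odor mice and 93.9% in vehicle mice had a lower difference than that median.

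The 3 GFP-positive arrays lay above the 3 GFP-negative arrays without overlap for 33 of the 34 genes in either treatment. Of all genes, 40.4% in odor mice and 35.3% in vehicle mice were separated in that direction. Within pools, 33 of the 34 genes were higher in the GFP-positive array of all 6 pools, compared with 36.1% of all genes. The pools differed in size: the median of the 34 genes was 0.46, 0.87 and 0.85 in the odor pools and 0.62, 0.59 and 0.97 in the vehicle pools. In samples of many cells, fewer cells of a type and less RNA per cell cannot be told apart, and this holds for every difference between the fractions given here.

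**Figure D1:**
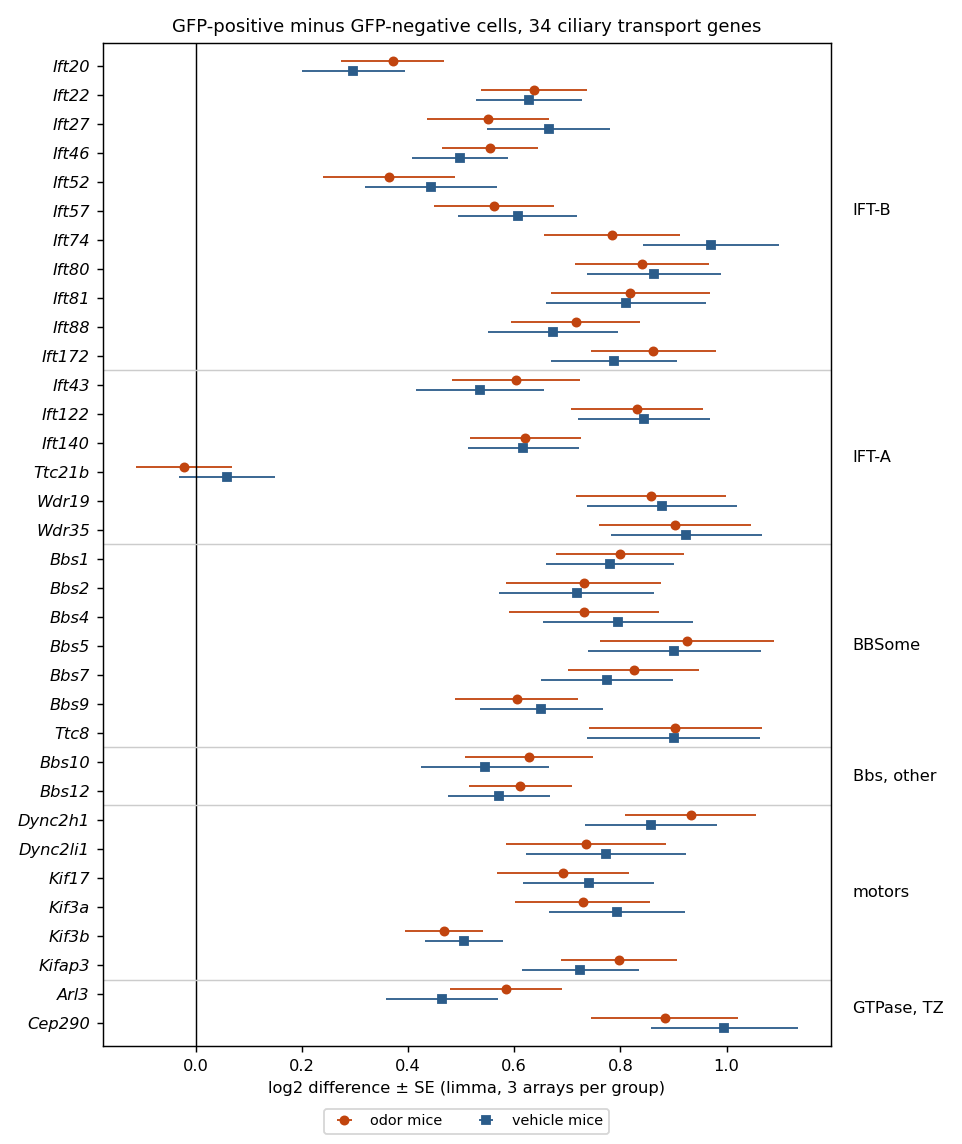
GFP-positive minus GFP-negative difference (log2, x axis) of each of the 34 ciliary transport genes, grouped by role down the page, with bars of 1 SE from limma, for odor and vehicle mice (3 pools each). Apart from Ttc21b, which sits at -0.02 in odor mice and 0.06 in vehicle mice, every point lies between 0.30 and 1.00.

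Among the 11 IFT-B genes, all 11 passed as higher in both treatments, with a median of 0.64 in odor mice and 0.66 in vehicle mice. Ift74, whose product with that of Ift81 binds tubulin as cargo, was at 9.75, 9.71 and 9.80 in odor GFP-positive arrays and 9.22, 8.72 and 8.97 in odor GFP-negative arrays, and at 9.97, 9.88 and 9.86 in vehicle GFP-positive arrays and 9.12, 9.02 and 8.67 in vehicle GFP-negative arrays. Every GFP-positive value of Ift74 lay above every GFP-negative value. The difference was 0.78 (SE 0.13, adjusted p = 0.000283) in odor mice and 0.97 (adjusted p = 6.23e-05) in vehicle mice, the largest in the complex in vehicle mice. Ift81 was higher by 0.82 in odor mice and 0.81 in vehicle mice.

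Ift172 and Ift80, which encode peripheral IFT-B subunits, stood with Ift74 and Ift81 at the upper end. Ift172 was at 9.80, 9.90 and 9.89 in odor GFP-positive arrays against 9.27, 8.87 and 8.87 in odor GFP-negative arrays, and at 9.81, 9.84 and 9.90 in vehicle GFP-positive arrays against 9.19, 9.17 and 8.83 in vehicle GFP-negative arrays. The groups did not overlap, and the difference was 0.86 (SE 0.12, adjusted p = 8.02e-05) in odor mice and 0.79 (adjusted p = 0.000168) in vehicle mice. Ift80 was higher by 0.84 and 0.86 in odor and vehicle mice, a 1.79-fold and 1.82-fold signal. Ift88, a core subunit whose loss removes cilia in mice, was higher by 0.72 in odor mice and 0.67 in vehicle mice. Ift22 and Ift27, both small GTPase-like subunits, were higher by 0.64 and 0.55 in odor mice and by 0.63 and 0.67 in vehicle mice. Ift57 was higher by 0.56 in odor mice and 0.61 in vehicle mice, and the core subunit gene Ift46 by 0.55 and 0.50.

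The smallest IFT-B differences were those of Ift20 and Ift52. Ift20, whose product also works at the Golgi in sorting membrane cargo, was at 10.99, 10.83 and 10.86 in odor GFP-positive arrays and 10.70, 10.41 and 10.45 in odor GFP-negative arrays, with 10.86, 10.73 and 10.81 in vehicle GFP-positive arrays and 10.61, 10.57 and 10.34 in vehicle GFP-negative arrays. Its groups were separate but close, and the 6 pools ranged from 0.16 to 0.47. The test gave 0.37 (SE 0.10, adjusted p = 0.00646) in odor mice and 0.30 (adjusted p = 0.0222) in vehicle mice. In vehicle mice the call was lost under 5 alternatives, among them leaving out vehicle GFP-negative replicate 4 (adjusted p = 0.0982), vehicle GFP-positive replicate 1 (0.0784) or vehicle GFP-positive replicate 4 (0.0574), a second quantile normalization (difference 0.16, adjusted p = 0.123) and cyclic loess (0.00, adjusted p = 0.988). Under cyclic loess it was also lost in odor mice (0.09, adjusted p = 0.329).

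Ift52, a core subunit gene, was at 9.44, 9.52 and 9.38 in odor GFP-positive arrays and 9.27, 8.93 and 9.05 in odor GFP-negative arrays, and at 9.50, 9.48 and 9.46 in vehicle GFP-positive arrays and 9.11, 9.27 and 8.73 in vehicle GFP-negative arrays. The fractions did not overlap, and in odor mice the gap between them was small. The difference was 0.36 (SE 0.12, adjusted p = 0.0269) in odor mice and 0.44 (adjusted p = 0.00995) in vehicle mice. The odor call was lost without odor GFP-positive replicate 2 (adjusted p = 0.0589) or 3 (0.0854), without odor GFP-negative replicate 3 (0.0930) or 4 (0.0710), and under cyclic loess (0.13, adjusted p = 0.272). The vehicle call was lost under cyclic loess only (0.18, adjusted p = 0.139).

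Of the 6 IFT-A genes, 5 passed as higher in both treatments, and the median of the 6 was 0.73 in each. Wdr35, which encodes the IFT-A subunit IFT121, was at 10.54, 10.69 and 10.77 in odor GFP-positive arrays and 10.09, 9.60 and 9.59 in odor GFP-negative arrays, and at 10.62, 10.77 and 10.70 in vehicle GFP-positive arrays and 10.00, 9.79 and 9.52 in vehicle GFP-negative arrays. The fractions were fully separate in both treatments. The difference was 0.90 (SE 0.14, adjusted p = 0.000228) in odor mice and 0.92 (adjusted p = 0.000205) in vehicle mice, a 1.87-fold and 1.90-fold signal. Wdr19 was higher by 0.86 in odor mice and 0.88 in vehicle mice, and Ift122 by 0.83 and 0.84. Smaller differences came from Ift140, at 0.62 in odor mice and 0.62 in vehicle mice, and Ift43, at 0.60 and 0.54.

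Ttc21b, which encodes the IFT-A subunit IFT139, was at 6.20, 6.38 and 6.44 in odor GFP-positive arrays and 6.36, 6.48 and 6.24 in odor GFP-negative arrays, and at 6.45, 6.62 and 6.42 in vehicle GFP-positive arrays and 6.36, 6.47 and 6.49 in vehicle GFP-negative arrays. All groups overlapped, and the 12 values lay near the lower quartile of genes on the arrays. The difference was -0.02 in odor mice (95% interval -0.22 to 0.17, adjusted p = 0.845) and 0.06 in vehicle mice (95% interval -0.14 to 0.26, adjusted p = 0.65). Both intervals end below the differences of the other IFT-A genes. The deposited values carry no detection call, so whether its probe set measured RNA above background was not tested.

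All 7 BBSome subunit genes passed as higher in both treatments, with differences of 0.60 to 0.92 and a median of 0.80 in odor mice, and of 0.65 to 0.90 and a median of 0.78 in vehicle mice. Bbs5, whose product binds membrane phosphoinositides, was at 9.36, 9.30 and 9.35 in odor GFP-positive arrays and 8.72, 8.19 and 8.31 in odor GFP-negative arrays, and at 9.31, 9.49 and 9.24 in vehicle GFP-positive arrays and 8.53, 8.75 and 8.07 in vehicle GFP-negative arrays. The GFP-positive arrays were close together and the GFP-negative arrays spread wider, with no overlap. The difference was 0.92 (SE 0.16, adjusted p = 0.000499) in odor mice and 0.90 (adjusted p = 0.000628) in vehicle mice.

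Ttc8, the gene of the subunit BBS8, followed at 0.90 in odor mice and 0.90 in vehicle mice. Bbs1, whose product is the subunit that Arl6 recruits to the membrane, was at 10.46, 10.54 and 10.37 in odor GFP-positive arrays and 9.87, 9.67 and 9.43 in odor GFP-negative arrays, and at 10.54, 10.57 and 10.52 in vehicle GFP-positive arrays and 9.78, 9.97 and 9.54 in vehicle GFP-negative arrays. Its fractions were separate in both treatments, with a difference of 0.80 (SE 0.12, adjusted p = 0.00016) in odor mice and 0.78 (adjusted p = 0.000201) in vehicle mice. Bbs7 was higher by 0.82 in odor mice and 0.78 in vehicle mice, Bbs4 by 0.73 and 0.80, and Bbs2 by 0.73 and 0.72. Bbs9 had the smallest difference of the complex in both, at 0.60 in odor mice (adjusted p = 0.000851) and 0.65 in vehicle mice (adjusted p = 0.000538). Bbs10 and Bbs12 encode chaperonin-like proteins that help to assemble the BBSome and are not part of it. Bbs10 was higher by 0.63 in odor mice and 0.55 in vehicle mice, and Bbs12 by 0.61 and 0.57. The GFP-negative means of Bbs12, 6.30 in odor mice and 6.43 in vehicle mice, lay near the lower quartile of genes (6.25 to 6.41).

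The 6 motor genes all passed as higher in both treatments, with a median of 0.73 in odor mice and 0.76 in vehicle mice. Dync2h1, the heavy chain of dynein-2, was at 9.47, 9.91 and 9.88 in odor GFP-positive arrays and 9.02, 8.69 and 8.76 in odor GFP-negative arrays, and at 9.72, 9.81 and 9.88 in vehicle GFP-positive arrays and 9.08, 8.91 and 8.85 in vehicle GFP-negative arrays. Odor GFP-positive replicate 2 was the lowest of the GFP-positive arrays and still lay above all GFP-negative arrays. The difference was 0.93 (SE 0.12, adjusted p = 6.16e-05) in odor mice, the largest of the 34 genes there, and 0.86 (adjusted p = 0.000126) in vehicle mice. Its partner Dync2li1, the light intermediate chain, was higher by 0.73 in odor mice and 0.77 in vehicle mice.

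The heterotrimeric kinesin-2 is made of the motor subunits Kif3a and Kif3b and the accessory subunit Kifap3. Kif3a was at 10.05, 10.19 and 10.12 in odor GFP-positive arrays and 9.60, 9.30 and 9.28 in odor GFP-negative arrays, and at 10.16, 10.20 and 10.21 in vehicle GFP-positive arrays and 9.47, 9.64 and 9.08 in vehicle GFP-negative arrays. Kif3b was at 9.96, 9.97 and 10.01 in odor GFP-positive arrays and 9.61, 9.46 and 9.47 in odor GFP-negative arrays, and at 10.06, 9.95 and 10.05 in vehicle GFP-positive arrays and 9.59, 9.55 and 9.41 in vehicle GFP-negative arrays. Both genes were separate between the fractions, and the difference was smaller for Kif3b. Kif3a differed by 0.73 (SE 0.13, adjusted p = 0.000475) in odor mice and 0.79 (adjusted p = 0.000275) in vehicle mice. Kif3b differed by 0.47 (SE 0.07, adjusted p = 0.00021) in odor mice and 0.51 (adjusted p = 0.000129) in vehicle mice. Kifap3 was higher by 0.80 in odor mice and 0.72 in vehicle mice. The homodimeric kinesin gene Kif17 was higher by 0.69 in odor mice and 0.74 in vehicle mice.

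Cep290, which builds the transition zone that gates the base of the cilium, was at 9.40, 9.50 and 9.58 in odor GFP-positive arrays and 8.92, 8.36 and 8.56 in odor GFP-negative arrays, and at 9.60, 9.61 and 9.68 in vehicle GFP-positive arrays and 8.85, 8.68 and 8.38 in vehicle GFP-negative arrays. The fractions were separate, with pools between 0.48 and 1.31. Its difference was 0.88 (SE 0.14, adjusted p = 0.000208) in odor mice and 1.00 (adjusted p = 9.17e-05) in vehicle mice, a 1.99-fold signal and the largest of the 34 there. Arl3, a small GTPase that releases lipid-modified cargo inside the cilium, was at 11.38, 11.37 and 11.42 in odor GFP-positive arrays and 11.01, 10.75 and 10.66 in odor GFP-negative arrays, and at 11.45, 11.45 and 11.41 in vehicle GFP-positive arrays and 11.10, 11.06 and 10.75 in vehicle GFP-negative arrays. The GFP-positive arrays lay above without overlap, by 0.58 (SE 0.11, adjusted p = 0.00058) in odor mice and 0.46 (adjusted p = 0.00282) in vehicle mice. The vehicle call of Arl3 was lost under cyclic loess (0.17, adjusted p = 0.0691).

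The order of the 34 sort differences was similar in odor and vehicle mice, which are separate animals: Pearson's r was 0.942 and Spearman's rho 0.914 across the 34 genes, and r was 0.917 over the 33 genes other than Ttc21b. Genes measured on the same arrays are not independent, so these correlations are a description. The largest gap between the treatments was 0.19, for Ift74.

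The GFP-negative arrays carried most of the spread. The median SD of the 34 genes was 0.07 in odor GFP-positive arrays and 0.22 in odor GFP-negative arrays, and 0.06 in vehicle GFP-positive arrays and 0.22 in vehicle GFP-negative arrays (n = 3 arrays each). For all genes the median SDs were 0.08, 0.14, 0.08 and 0.12 in the same groups. The spread was shared among the genes: 32 of the 34 were highest in odor GFP-negative replicate 2 among the 3 odor GFP-negative arrays (35.5% of all genes), and 31 were lowest in vehicle GFP-negative replicate 4 among the 3 vehicle GFP-negative arrays (39.4% of all genes). The mean of the 34 genes was 9.91, 9.94 and 9.95 in odor GFP-positive arrays and 9.47, 9.14 and 9.12 in odor GFP-negative arrays. It was 9.98, 9.98 and 9.95 in vehicle GFP-positive arrays and 9.39, 9.39 and 9.05 in vehicle GFP-negative arrays.

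**Figure D2:**
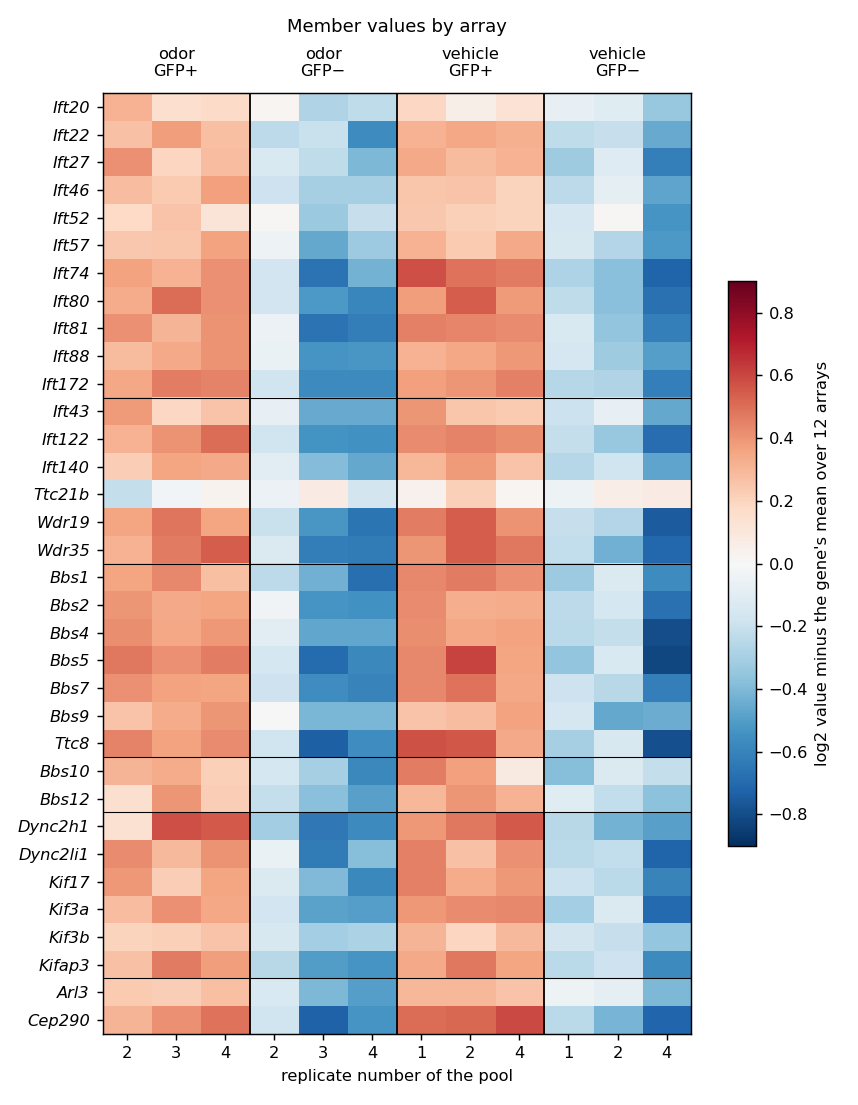
Each ciliary transport gene's log2 value minus its own mean over the 12 arrays (colour), with the genes by role down the page and the arrays by group across it. All genes but Ttc21b are above their mean in GFP-positive arrays, and among GFP-negative arrays odor replicates 3 and 4 and vehicle replicate 4 are lowest for most genes.

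Other cell types moved with the sort. The mean of 11 leukocyte markers was 7.64 to 7.99 in odor GFP-positive arrays and 11.01, 11.28 and 11.47 in odor GFP-negative replicates 2, 3 and 4. In vehicle mice it was 7.71 to 7.82 in GFP-positive arrays and 11.00, 11.01 and 11.25 in GFP-negative replicates 1, 2 and 4. The 3 GFP-negative arrays with the lowest ciliary transport means, odor replicates 3 and 4 and vehicle replicate 4, thus had the highest leukocyte means. All 11 leukocyte markers passed as lower in GFP-positive cells, with a median of -3.91 in odor mice and -3.94 in vehicle mice. All 8 sustentacular cell markers also passed as lower, with medians of -1.90 and -1.84. Their mean was 8.24 to 8.64 in odor GFP-positive arrays and 10.34, 10.59 and 10.49 in odor GFP-negative replicates 2, 3 and 4. In vehicle mice it was 8.20 to 8.60 in GFP-positive arrays and 10.54, 10.60 and 10.28 in GFP-negative replicates 1, 2 and 4. In vehicle mice the sustentacular mean was thus lowest in the GFP-negative array with the highest leukocyte mean. Of 6 progenitor and dividing cell markers, 5 passed as lower in odor mice and 6 in vehicle mice, with medians of -2.14 and -1.82. Other lists were mixed: 3 of 8 immature neuron markers passed as higher and 4 as lower, and 2 of 5 horizontal basal cell markers and 3 of 8 stromal and endothelial markers passed as lower, in each treatment. Each of these 4 counts moved by at most 1 under the other scalings. The part of this cell composition in the differences of the ciliary transport genes was not tested.

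**Figure D3:**
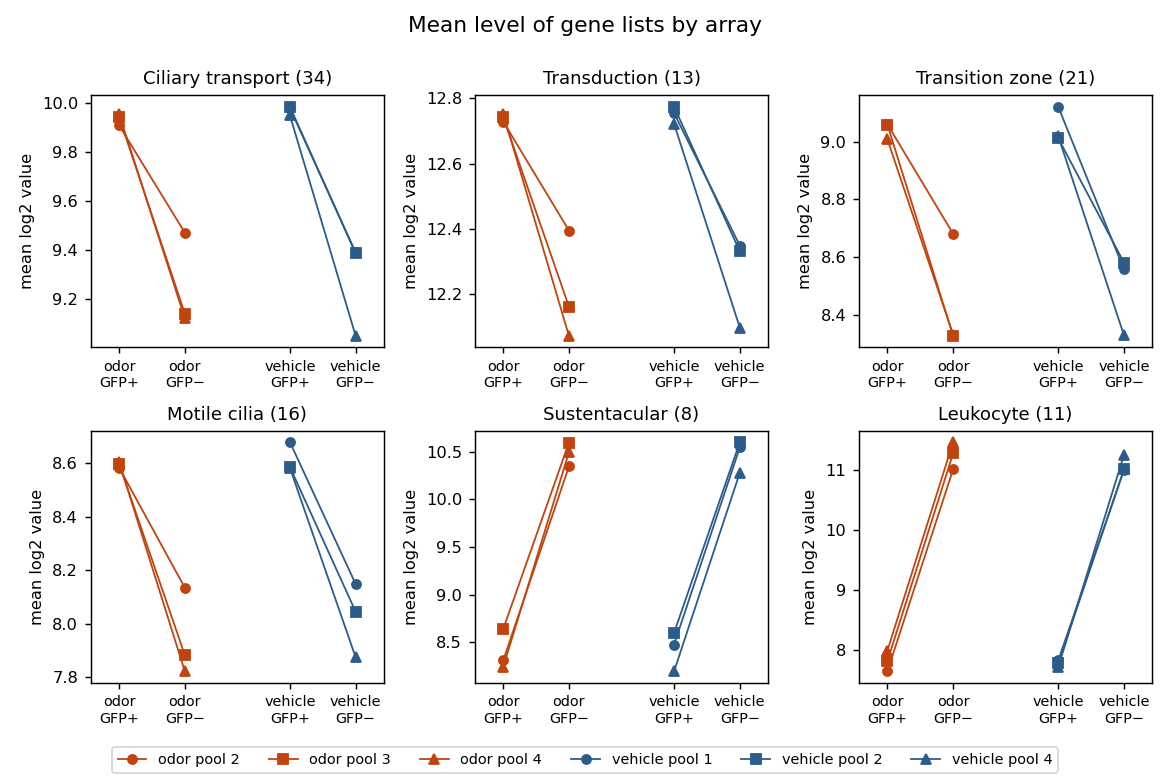
Mean log2 value per array (y axis) of 6 gene lists in the 4 groups, with a line joining the GFP-positive and GFP-negative arrays of each pool. Ciliary transport genes average 9.91 to 9.98 in GFP-positive arrays and 9.05 to 9.47 in GFP-negative arrays, and leukocyte markers average 7.64 to 7.99 and 11.00 to 11.47.

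Genes that belong to mature sensory neurons, and not to ciliary transport as such, were also higher in GFP-positive cells. Of 9 mature neuron markers, 8 passed as higher in both treatments, with a median of 0.46 in odor mice and 0.44 in vehicle mice. After cyclic loess 3 passed as higher and 1 as lower in odor mice, and 4 as higher in vehicle mice, with medians of 0.15 and 0.16. Most of these markers are also among the transduction genes given next, so the lists are not separate. Of 13 genes of the transduction cascade in olfactory cilia, 12 passed as higher in odor mice and 11 in vehicle mice, with medians of 0.59 and 0.50 (7 higher and 1 lower in odor mice and 8 higher in vehicle mice after cyclic loess, medians 0.28 and 0.22). Among them were Pde1c, a phosphodiesterase of the cilium, at 0.93 in odor mice and 0.86 in vehicle mice, and Ano2, a calcium-activated chloride channel, at 0.77 and 0.79. Cngb1, a subunit of the cyclic nucleotide-gated channel, stood at 0.69 and 0.62, and Slc24a4, a calcium exchanger, at 0.74 and 0.79. In each of the 6 pools the mean difference of the 34 ciliary transport genes exceeded that of the 13 transduction genes, by 0.10, 0.22 and 0.15 in the odor pools and by 0.18, 0.15 and 0.27 in the vehicle pools. Both lists were read on the same arrays, and the gap was not tested. Not every ciliary list lay below the 34 genes in all pools. In odor pool 2 the mean difference was 0.45 for the motile cilia genes given below, against 0.44 for the 34. In vehicle pool 1 it was 0.62 for the other IFT, BBSome and motor genes, against 0.59. Each of these lists lay below the 34 in its remaining pools. The transduction genes averaged 12.72 to 12.77 in GFP-positive arrays, nearer the top of the signal range than the 34 genes at 9.91 to 9.98. Whether their high signal narrowed their differences was not tested. Stoml3, a transduction gene that did not pass in either treatment, averaged 14.01 in odor GFP-positive arrays and 13.90 in odor GFP-negative arrays, close to the highest value on any array (14.1).

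Further components of the same machinery, not picked by the symbol rule, followed the same direction. Of 15 other IFT, BBSome and motor genes, 12 passed as higher in odor mice and 14 in vehicle mice, with medians of 0.53 and 0.68 and none lower. After cyclic loess 9 passed as higher in odor mice and 12 in vehicle mice, with 1 lower in each, and 1 was also lower in vehicle mice after a second quantile normalization. The largest were Ttc26, an IFT-B subunit gene, at 0.96 in odor mice and 1.05 in vehicle mice, and Ttc30b, another, at 0.91 and 1.12. Wdr60, a dynein-2 intermediate chain gene, stood at 0.84 and 0.91, and Trim32, a ubiquitin ligase gene also known as Bbs11, at 0.53 and 0.79. Dynll1, a dynein light chain gene shared with many other complexes, was at 0.09 and -0.09 and passed in neither.

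Of 21 transition zone genes, 17 passed as higher in odor mice and 19 in vehicle mice, with medians of 0.67 and 0.60 and none lower. After cyclic loess 16 and 14 of them passed as higher, with medians of 0.43 and 0.36. Rpgrip1l was higher by 0.83 in odor mice and 0.92 in vehicle mice, Cc2d2a by 0.92 and 0.83, Tmem107 by 0.84 and 0.82, and Tctn3 by 0.94 and 0.81. Of 21 genes of ciliary membrane trafficking and the basal body, 18 passed as higher in each treatment, with medians of 0.50 and 0.48. After cyclic loess 13 of these genes passed as higher in odor mice and 14 in vehicle mice, with medians of 0.30 and 0.23. Rab23, a small GTPase, was higher by 0.66 in odor mice and 0.78 in vehicle mice, Rp2, which activates the GTPase cycle of Arl3, by 0.65 and 0.64, and Tub by 0.71 and 0.62. Unc119, whose product is a carrier of lipid-modified cargo that Arl3 unloads, was lower in GFP-positive cells, by -0.86 in odor mice (adjusted p = 7.67e-06) and -0.81 in vehicle mice (adjusted p = 1.43e-05). Rab8a, a small GTPase of vesicle traffic, was also lower in odor mice (-0.20, adjusted p = 0.0233) and was at -0.13 in vehicle mice without passing. After median centring Rab8a passed in neither (-0.06 in odor mice and 0.02 in vehicle mice). After a second quantile normalization and after cyclic loess, 2 of the 21 genes passed as lower in each treatment.

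Olfactory cilia of mice are regarded as immotile. Of 16 motile cilia genes 12 passed as higher in each treatment, with medians of 0.73 in odor mice and 0.63 in vehicle mice. Rsph4a, a radial spoke gene, was higher by 0.96 in odor mice and 1.02 in vehicle mice, and Ccdc39 and Ccdc40, which set the repeat length of motile axonemes, by 0.93 and 0.80 in odor mice and by 0.85 and 0.90 in vehicle mice. Dnah11, an axonemal dynein heavy chain gene, was higher by 0.95 in odor mice and 0.75 in vehicle mice. On the deposited values Dnaic1, Tekt2, Spag6 and Spag17 did not pass in either treatment. The difference of Dnaic1 was large but its arrays spread widely. It was 0.89 in odor mice (SE 0.36, limma adjusted p = 0.0544) and 0.70 in vehicle mice (SE 0.36, adjusted p = 0.133). Group means of Spag6 were 6.31 to 6.58 and those of Spag17 4.85 to 5.04, near or below the lower quartile of genes (6.25 to 6.41). After median centring all 16 motile cilia genes passed as higher in odor mice and 14 in vehicle mice. After cyclic loess 12 of the motile cilia genes passed as higher in odor mice and 13 in vehicle mice, with medians of 0.52 and 0.46. Of 10 transcription factors of cilia formation, 4 passed as higher and 1 as lower in each treatment. After median centring 7 passed as higher in each, and after cyclic loess 3 passed as lower in odor mice and 2 in vehicle mice. Rfx4 was higher by 1.01 in odor mice and 1.14 in vehicle mice, Rfx3 by 0.63 and 0.62, and Foxj1 by 0.66 and 0.62. Myb, which acts in progenitors of multiciliated cells and also in other dividing and blood cells, was lower by -3.35 in odor mice and -3.36 in vehicle mice.

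**Figure D4:**
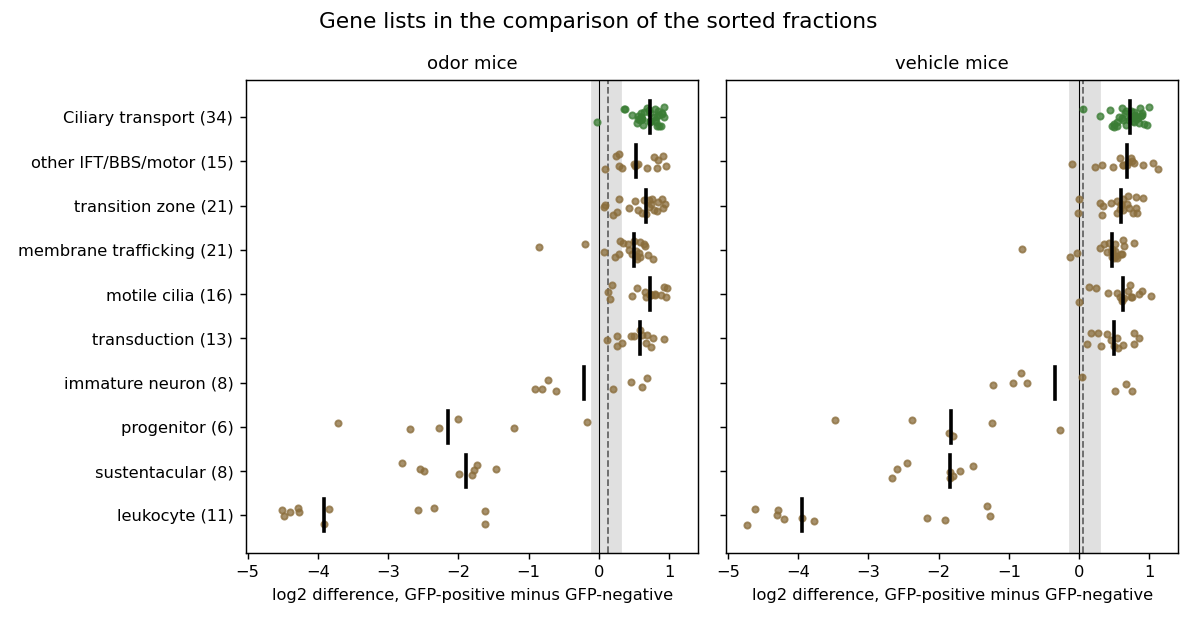
GFP-positive minus GFP-negative differences (log2, x axis) of the genes in each list, in odor mice and in vehicle mice, with 1 point per gene, a bar at the list's median, a grey band over the quartiles of all genes and a dashed line at the all-gene median of 0.13 in odor mice and 0.06 in vehicle mice. The medians of the ciliary transport genes (0.73 in each) lie right of the grey band, and those of leukocyte markers (-3.91 and -3.94) far to its left.

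The promoters of the 34 genes were also searched for the X-box, the motif of RFX transcription factors, which are known regulators of ciliary genes. The motif was searched as GTNNCC, then 3 bases of any kind, then GNAAC, on both strands, with its common half-site GTTGCC beside it, in RefSeq promoters of GRCm38.p6 that run from 250 bases before the annotated start to 50 bases after it. Promoters were listed for 30 of the 34 genes, and Ift122, Ift80, Ift81 and Dync2li1 had no entry. An X-box match lay in 5 of the 30 promoters (16.7%), against 2.17% of all 32851 promoters and 2.42% of those of tested genes. The share was 32.1% of 28 promoters of transition zone genes, 11.8% of 17 of other IFT, BBSome and motor genes, 7.41% of 27 of trafficking and basal body genes, 6.25% of 16 of motile cilia genes and 5.88% of 17 of transduction genes. The half-site GTTGCC lay in 12 of the 30 promoters (40.0%), against 12.5% of all promoters. It lay in 41.2% of the promoters of other IFT, BBSome and motor genes, 37.5% of motile cilia genes, 35.7% of transition zone genes, 22.2% of trafficking and basal body genes and 17.6% of transduction genes. It can form part of an X-box, and it did so in the matches of Bbs7, Ift57 and Bbs1. A match is a run of letters and not a measured binding site.

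The 6 matches are shown because they are all that were found in the 30 promoters searched, each within 30 bases read on the strand of the match, with the X-box in capitals:
Bbs7: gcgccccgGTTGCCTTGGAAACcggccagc
Ift22, upstream match: gctgcgcaGTAGCCCAGGAAACcctgacag
Ift22, downstream match: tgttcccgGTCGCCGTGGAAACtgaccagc
Bbs4: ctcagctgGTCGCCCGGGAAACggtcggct
Ift57: ggcagccgGTCACCACGGCAACcagacccg
Bbs1: tcccaggcGTCGCCTTGGCAACcagctcag
The Bbs7 window is chr3:36613489-36613518, where the gene is on the minus strand, and its letters match on both strands at positions -121 to -108 from the start. The Ift22 windows are chr5:136908079-136908108, matched on the strand opposite to the gene at -63 to -50, and chr5:136908109-136908138, matched on the gene's plus strand at -33 to -20. The Bbs4 window is chr9:59353464-59353493, matched on the gene's minus strand 24 to 37 bases after the start. The Ift57 window is chr16:49699199-49699228, matched opposite to the plus-strand gene at -87 to -74. The Bbs1 window is chr19:4906605-4906634, matched opposite to the minus-strand gene at positions 2 to 15. The sort differences of these 5 genes in odor mice were 0.82 (Bbs7), 0.64 (Ift22), 0.73 (Bbs4), 0.56 (Ift57) and 0.80 (Bbs1), within the range of the other members, so the genes with a match did not stand at either end.

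Ift22 was the promoter with 2 separate matches, and the 250 bases before its start (chr5:136907900-136908149, plus strand) are shown for the spacing of both, in capitals, the first reading on the gene's strand as the reverse complement of the motif:
Ift22 promoter: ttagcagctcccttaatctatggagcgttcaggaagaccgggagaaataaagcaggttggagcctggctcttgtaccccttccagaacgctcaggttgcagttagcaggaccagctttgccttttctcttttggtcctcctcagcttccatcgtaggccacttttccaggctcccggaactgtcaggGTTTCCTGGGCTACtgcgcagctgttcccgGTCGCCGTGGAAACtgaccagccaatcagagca

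The second comparison asked whether repeated odor changed these genes within a fraction. In GFP-positive cells, 0 of the 34 genes passed in odor against vehicle mice, by limma, and 0 had an unadjusted p under 0.05. Of all genes, 0.00502% (1 gene) passed as higher, 0% as lower, and 1.3% had an unadjusted p under 0.05. The median difference of the 34 genes was -0.02, with a range from -0.16 for Ttc21b to 0.09 for Ift20. The smallest unadjusted p was 0.103, and the adjusted p was 1 for all. All 34 of the 95% intervals lay within 0.5 of zero, between -0.43 and 0.34, so a change of 1.5-fold or more lay outside every interval. The SE behind these intervals is pooled with the GFP-negative arrays, which spread more for most of the 34 genes. Of the 34 genes, 6 had a difference above 0, as did 52.5% of all genes. That count was not stable: it was 12 without odor GFP-positive replicate 2, 13 after a second quantile normalization and 23 with a block for the title number (median 0.02).

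The odor arrays lay below the vehicle arrays without overlap for 3 of the 34 genes in GFP-positive cells, which is 8.82%, compared with 3.45% of all genes. These were Cep290 at -0.13 (SE 0.14), Ift74 at -0.15 (SE 0.13) and Ift81 at -0.07 (SE 0.15), each with an adjusted p of 1. The values of Cep290 and Ift74 in each array are given above, and the SE pools the spread of all 12 arrays. Ift81 was at 10.23, 10.12 and 10.22 in odor GFP-positive arrays, against 10.28, 10.26 and 10.25 in vehicle GFP-positive arrays. No gene of the 34 was separated in the other direction.

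In GFP-negative cells, 0 of the 34 genes passed and 0 had an unadjusted p under 0.05, while 0% of all genes passed in either direction and 6.53% had an unadjusted p under 0.05. The median difference was -0.02, with a range from -0.17 for Arl3 to 0.10 for Ift27. The smallest unadjusted p was 0.143 and the smallest adjusted p 0.754. All 34 intervals lay within 0.5 of zero, between -0.43 and 0.38. No gene had separate groups, compared with 7.44% of all genes. The sign and size of the median depended on single arrays. It was -0.16 (1 of 34 genes above 0) without odor GFP-negative replicate 2 and -0.14 (1 of 34) without vehicle GFP-negative replicate 4, and 0.02 to 0.04 (21 to 26 of 34) without any other of the 6 arrays. None of the 34 genes passed in these settings, where the smallest adjusted p was 0.329.

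**Figure D5:**
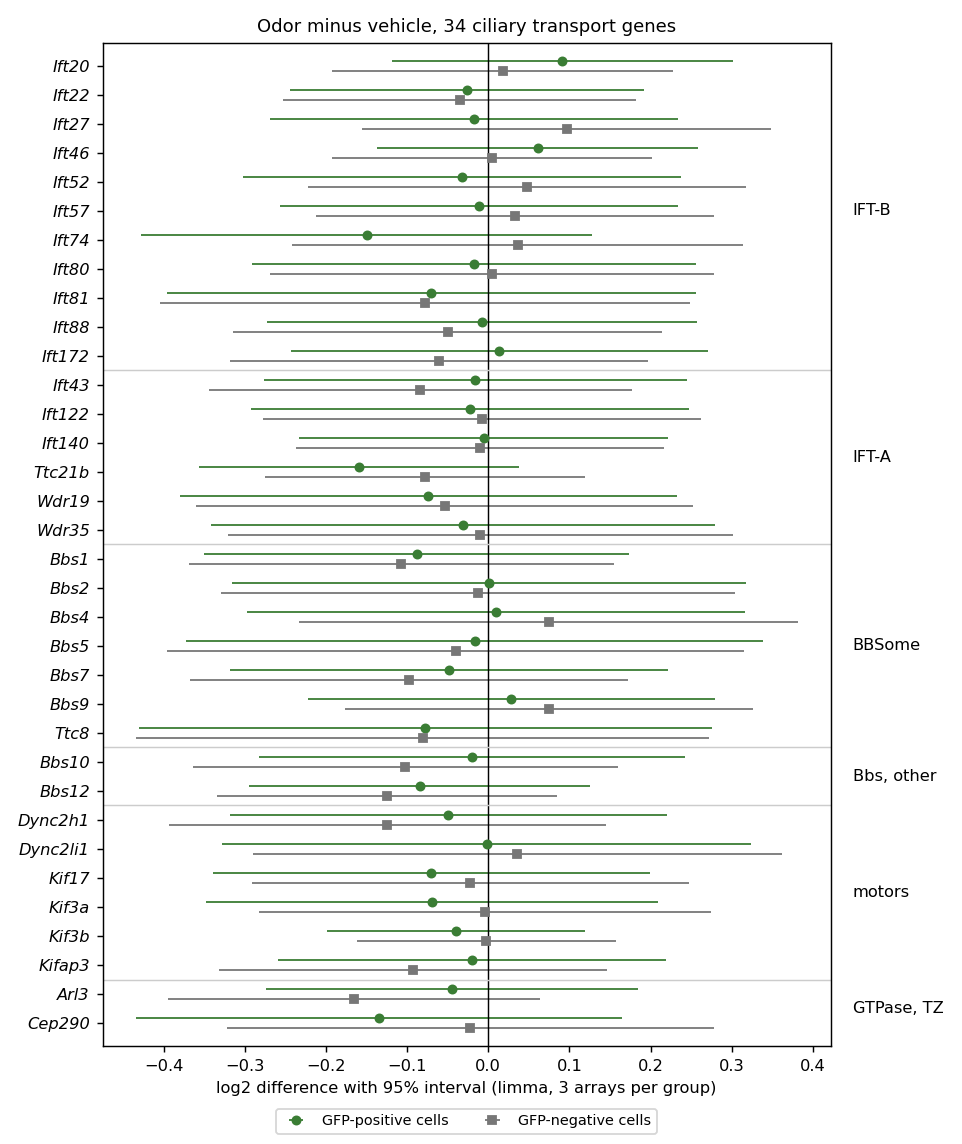
Odor minus vehicle difference (log2, x axis) of each ciliary transport gene in GFP-positive and GFP-negative cells, with 95% intervals from limma (3 arrays per group). Every interval spans 0, and all bounds lie between -0.43 and 0.38. The SE is pooled over the arrays of both fractions, so for most genes the GFP-negative intervals are too narrow.

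The last comparison asked whether the difference between the fractions depended on the treatment. The interaction, the sort difference in odor mice minus that in vehicle mice, passed for 0 of the 34 genes, with 0 at an unadjusted p under 0.05, against 0.00502% of all genes passing as higher, 0% as lower and 4.23% at an unadjusted p under 0.05. The median interaction of the 34 genes was 0.00, with a range from -0.19 for Ift74 to 0.12 for Arl3, and the smallest adjusted p was 0.981. This median also depended on single arrays. It was 0.12 (32 of 34 genes above 0) without vehicle GFP-negative replicate 4 and 0.11 (31 of 34) without odor GFP-negative replicate 2. It was -0.07 (7 of 34) without odor GFP-negative replicate 4, and 0 of the 34 genes passed in each of these settings. Its error is larger than that of a single comparison (median SE 0.17, against 0.12), and 30 of the 34 intervals lay within 0.5 of zero.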

How the data were processed

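RNA of sorted cells from 6 pools of 3 mice was hybridised to Affymetrix Mouse Gene 1.0 ST arrays. The deposited values are log2 signals per probe set, which per the submitters' processing notes came from the authors' use of Affymetrix Expression Console. How that program corrected, normalized and summarised the signals, and in which version, remains not given in the sources used here. Precision is limited by the number of arrays.

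Of 35556 probe sets, 21789 had 1 gene symbol in the platform annotation, 1621 several and 12146 none. Only those with 1 symbol were used. Of their gene identifiers, 21698 matched RefSeq and 91 did not. Where a gene had several probe sets (999 genes, none of them a ciliary transport gene), the one with the highest mean was kept, which left 19938 genes.

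All 12 arrays were fitted in 1 limma model (limma 3.58.1, R 4.3.3) with 4 group means and no block. The comparisons were odor minus vehicle in each fraction, GFP-positive minus GFP-negative in each treatment, and the interaction. Tests were two-sided, with Benjamini-Hochberg adjustment over all genes and a threshold of 0.05. SDs and SEs are on the log2 scale. Ranges, counts, promoter searches and figures were made with Python 3.11.15, pandas 2.3.3 and matplotlib 3.10.9. The procedure was tested on simulated data with known changes. Of genes changed by 0.5 on the log2 scale, 55.2% were called in odor against vehicle GFP-positive cells. That share was 64.2% in GFP-negative cells and 34.3% for the interaction, so changes of that size can be missed.

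The 34 genes, the companion lists of ciliary, transduction and cell type marker genes and the rules for naming genes were chosen with earlier results of these data known. Every one of the 34 is given in the text. From each companion list of ciliary, trafficking, transduction, motile cilia or transcription factor genes, the 4 with the largest passing sort difference in vehicle mice were named. The cell type lists are given by counts and means, although the same rule covered them. Dynll1, Rab8a, Stoml3, Dnaic1, Tekt2, Spag6 and Spag17 fall outside the rule and were named after their values were seen. Ift20 was taken out of the trafficking list, since it is one of the 34.

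The numbers in the titles pair the fractions of a pool, which come from the same mice. The deviations of the 2 arrays of a pool from their group means correlated at 0.07 to 0.25 across genes. Alternatives were median centring, a second quantile normalization, cyclic loess, leaving out genes under the lower quartile of means, the mean of a gene's probe sets, array weights, a variance trend with robust estimation, fitting only the groups compared, replicate blocks and leaving out each array.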

Additional observations from a re-analysis of the deposited data

How the results depend on the processing

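The 33 genes higher in GFP-positive cells numbered 31 to 33 in odor mice and 30 to 33 in vehicle mice over all alternatives, with 0 lower, and 32 to 33 in each when 1 array was left out. Calls were lost for Ift20, Ift52 and Arl3 only, and the highest adjusted p of the other 30 in any setting was 0.0431. The median of the 34 genes ranged over 0.53 to 0.87 (odor) and 0.50 to 0.88 (vehicle). Scaling moved the whole table: after median centring the all-gene median was 0.27 in odor and 0.20 in vehicle mice, and 0.00 in both after cyclic loess, against 0.13 and 0.06 as deposited. Relative to it, the 34 genes stood at 0.60, 0.55 and 0.52 in odor mice after median centring, a second quantile normalization and cyclic loess, and at 0.68, 0.56 and 0.50 in vehicle mice, compared with 0.60 and 0.68 as deposited. The pool as a replicate block left 33 higher and 0 lower in both treatments. Replicate blocks by title number or by code number left 0 of the 34 genes passing in either odor comparison. These numbers share no mice across treatments. The deviations of same-numbered odor and vehicle arrays from their group means correlated at -0.17 to 0.28 by title number. By code number these deviations correlated at -0.21 to 0.44. In the odor comparisons and the interaction, 0 of the 34 passed in any setting, while their medians ranged over -0.04 to 0.02 (GFP-positive), -0.16 to 0.04 (GFP-negative) and -0.07 to 0.12 (interaction), with a smallest adjusted p of 0.329 in GFP-negative cells and 0.999 in GFP-positive cells. The deposited values carry no detection call, and the number of pools (3 per treatment) limits the precision.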
